A study of Homo sapiens with 6 samples.

Results

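The replication-dependent histone genes were described in 6 RNA-seq libraries of PC3, an established human prostate cancer cell line. They were taken as every row of the gene table with an H1-1 to H1-5, H2AC, H2BC, H3C or H4C symbol, which gave 68 of 62700 genes. Of these, 5 code for the linker histone H1, 17 for H2A, 18 for H2B, 13 for H3 and 15 for H4. The knockdown group was 3 libraries of PC3 cells with an shRNA against TTC3, an E3 ubiquitin ligase with tetratricopeptide repeats, given in the labels as shTT3 with the genotype TTC3 knockdown. The other 3 libraries came from PC3 cells with a control shRNA, given as shNC with the genotype WT. Both groups were grown in the same medium with serum. The labels do not state the hairpin sequences, the number of clones, the time after knockdown or separate cultures, so the spread between libraries may be technical.

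Replication-dependent histone genes supply the proteins that package newly made DNA. Their mRNAs are made mostly in S phase and, alone among animal mRNAs, usually end in a stem-loop in place of a poly(A) tail. The stem-loop is bound by SLBP, cut with the help of the U7 small nuclear ribonucleoprotein and, when replication stops, used as the starting point of decay. H2A, H2B, H3 and H4 form the nucleosome core and H1 binds the linker DNA. The genes have no introns in their main form and lie in clusters, where many H2A and H2B genes start head to head. NPAT, a target of cyclin E and CDK2, drives their transcription as a group. Libraries made from total RNA after removal of ribosomal RNA, as here, hold histone mRNAs with and without a tail.

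By RefSeq positions on GRCh38.p14, 54 of the 68 genes lay on chromosome 6 between 25726063 and 27893891, 13 on chromosome 1 and H4C16 on chromosome 12. GENCODE 29 transcripts were matched for 64 members, and 28 of these had a stem-loop in an annotated transcript. The search was for 16 letters on the transcript: an arm of 6 that starts with GG, a loop that starts with TT, and an arm of 6 that ends with CC, with at least 5 of the 6 stem positions paired. The motif stood in 2.67% of all 83129 protein-coding transcripts. Of the 36 members without one, 34 had only annotated transcripts whose length was a multiple of 3, so their annotation may stop at the coding region. The 5 forms found are shown because they differ between classes, in DNA letters with the 2 arms of the stem in capitals and the loop in lower case.
Form of 4 H2A, 8 H2B and 3 H3 genes: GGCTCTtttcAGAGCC
Form of H2BC4, H2BC5, H2BC7 and H3C8: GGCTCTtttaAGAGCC
Form of H2AC11: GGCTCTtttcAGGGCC
Form of H4C2, H4C5, H4C8, H4C11 and H4C16: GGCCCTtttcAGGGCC
Form of H4C9, H4C14 and H4C15: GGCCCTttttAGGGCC
The H4 genes with a form all had the arms GGCCCT and AGGGCC, and the H2A, H2B and H3 genes with a form, H2AC11 excepted, all had GGCTCT and AGAGCC.

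Promoter windows of 250 bases before the start were given by RefSeq for 63 members, in 67 windows. Motifs were searched by exact letters on both strands, and their shares among all 35116 promoter windows are set beside those of the members. The member windows are not independent. Head-to-head H2A and H2B genes share most of a window, H3C4 has the same window as H2AC7, and those of H4C14 and H4C15 have the same letters. CCAAT, the box bound by NF-Y, was in every H1, H2A, H2B and H3 window and in 23.1% of H4 windows, against 32% of all windows. TATAAA was in 67.2% of member windows, against 10.7% of all. ATTTGCAT, the octamer bound by POU2F1, was in 75% of H2B and 68.8% of H2A windows, in no H1 or H4 window, and in 1.63% of all windows. AAACACA, known as the H1 AC box, was in all 5 H1 windows, against 4.82% of all. GGTCCG, the core of the H4 site bound by HINFP, was in 92.3% of H4 windows, against 9.43% of all. In 3 member windows a pair of these motifs shared bases. The windows of 3 genes are shown, 5′ to 3′ on the gene's strand with every motif found on either strand in capitals. They are H4C2, the highest fold change of all members, H1-4, the highest of H1, and H2AC17, whose window also holds the promoter of its head-to-head partner H2BC17 read from the other strand.
H4C2, chr6:26027284-26027533 (minus strand): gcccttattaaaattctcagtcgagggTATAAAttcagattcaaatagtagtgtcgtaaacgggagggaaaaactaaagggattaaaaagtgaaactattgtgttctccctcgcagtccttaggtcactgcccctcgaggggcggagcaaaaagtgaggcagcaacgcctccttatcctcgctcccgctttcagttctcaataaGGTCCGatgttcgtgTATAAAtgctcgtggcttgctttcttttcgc
H1-4, chr6:26156079-26156328 (plus strand): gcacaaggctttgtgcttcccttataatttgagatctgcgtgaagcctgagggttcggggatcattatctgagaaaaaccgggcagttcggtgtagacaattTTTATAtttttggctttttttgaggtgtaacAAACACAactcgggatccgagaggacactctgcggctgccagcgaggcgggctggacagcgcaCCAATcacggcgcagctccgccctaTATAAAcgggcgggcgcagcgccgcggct
H2AC17, chr6:27893186-27893435 (minus strand): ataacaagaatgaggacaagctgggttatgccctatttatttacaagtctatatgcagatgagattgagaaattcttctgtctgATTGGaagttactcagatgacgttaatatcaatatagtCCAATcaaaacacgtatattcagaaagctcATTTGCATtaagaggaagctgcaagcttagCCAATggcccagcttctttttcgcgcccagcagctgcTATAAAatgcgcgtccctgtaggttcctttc

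The 6 libraries held 144655100 to 155526861 counts with TTC3 shRNA and 143246356 to 154832203 with control shRNA. TTC3 was at 228, 183 and 178 CPM (counts relative to the scaled library total) in the TTC3 shRNA libraries, against 695, 684 and 680 CPM in the control libraries. The epithelial keratins KRT8, KRT18 and KRT19 were at 139 CPM or above in every library, while KLK3 was listed at 0 in all 6. The TTC3 shRNA libraries were unlike each other. Structured small RNAs (signal recognition particle RNA, 7SK and the like) took 5.55, 9.69 and 11.6% of counts in TTC3 shRNA replicates 1, 2 and 3, against 6.47, 7.12 and 6.89% in the controls. Mitochondrially encoded RNA took 6.29, 3.73 and 3.54% with TTC3 shRNA, against 5.53, 5.29 and 5.52% with control shRNA. A trend with transcript length was fitted over 10559 protein-coding genes with a mean of at least 5 CPM. Histone members and the genes of the lists below were left out of the fit. Each doubling of transcript length moved the log2 ratio to the control mean by -0.02 in TTC3 shRNA replicate 1, by -0.15 in replicate 2 and by -0.19 in replicate 3. Short transcripts were thus relatively higher in replicates 2 and 3.

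Members took 0.444, 0.643 and 0.702% of all counts in TTC3 shRNA replicates 1, 2 and 3, against 0.437, 0.435 and 0.434% in the 3 control libraries. TTC3 shRNA replicate 1 thus stood close to the controls, and replicates 2 and 3 above them. In CPM scaled by TMM, a factor that sets the bulk of genes level between libraries, the members summed to 6281 ± 1640 with TTC3 shRNA and 4163 ± 5.81 with control shRNA (SD, n = 3 each). Replicates 2 and 3, with high histone levels, are the libraries with more structured small RNA, less mitochondrial RNA and the trend with transcript length. The part of these in the histone values was not tested. Values with the length trend removed are given below.

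Of the 68 members, 60 had counts enough to be tested, and the other 8 (H1-1, H1-5, H2AC1, H2BC1, H3C11, H4C6, H4C7 and H4C13) had at most 15 counts in any library. By edgeR's quasi-likelihood test with Benjamini-Hochberg adjustment over all 24325 genes tested, 27 members were higher with TTC3 shRNA, 6 were lower and 27 did not pass an adjusted p of 0.05. That is 45% higher and 10% lower, where 15.7% of all tested genes were higher and 17.8% lower (33.6% called in either direction). The median log2 fold change over the 60 was 0.60, against -0.02 over all tested genes. All 3 TTC3 shRNA libraries lay above all 3 controls in 50% of tested members, where 23.3% of all genes did so, and below them in 7 of 60, where 27% of all genes did. Which members were called depended on single libraries. The number called higher was 46 of 61 tested without TTC3 shRNA replicate 1, when 26.3% of all genes were called higher, 12 of 61 without replicate 2 (8.65% of all genes), 20 of 60 without replicate 3 (10.8% of all genes), and 9 to 11 of 60 without any one control, when 7.33 to 7.45% of all genes were. Only 9 of the 27 (H2AC4, H2AC7, H2AC8, H2BC7, H2BC9, H3C1, H3C4, H3C13 and H4C3) and 5 of the 6 lower ones (all but H2BC10) stayed past the threshold whichever library was left out. The share of all called genes that stayed so was not computed. Calls over all genes also became fewer in every case but that without TTC3 shRNA replicate 1. With the trend with transcript length taken out of every library, 16 members were higher and 12 lower, where 12.5% and 21.6% of all genes were, and the median was 0.15 over members and -0.14 over all genes. The member values with the trend removed depend on the length set for each gene, as given in the closing section.

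**Figure D1:**
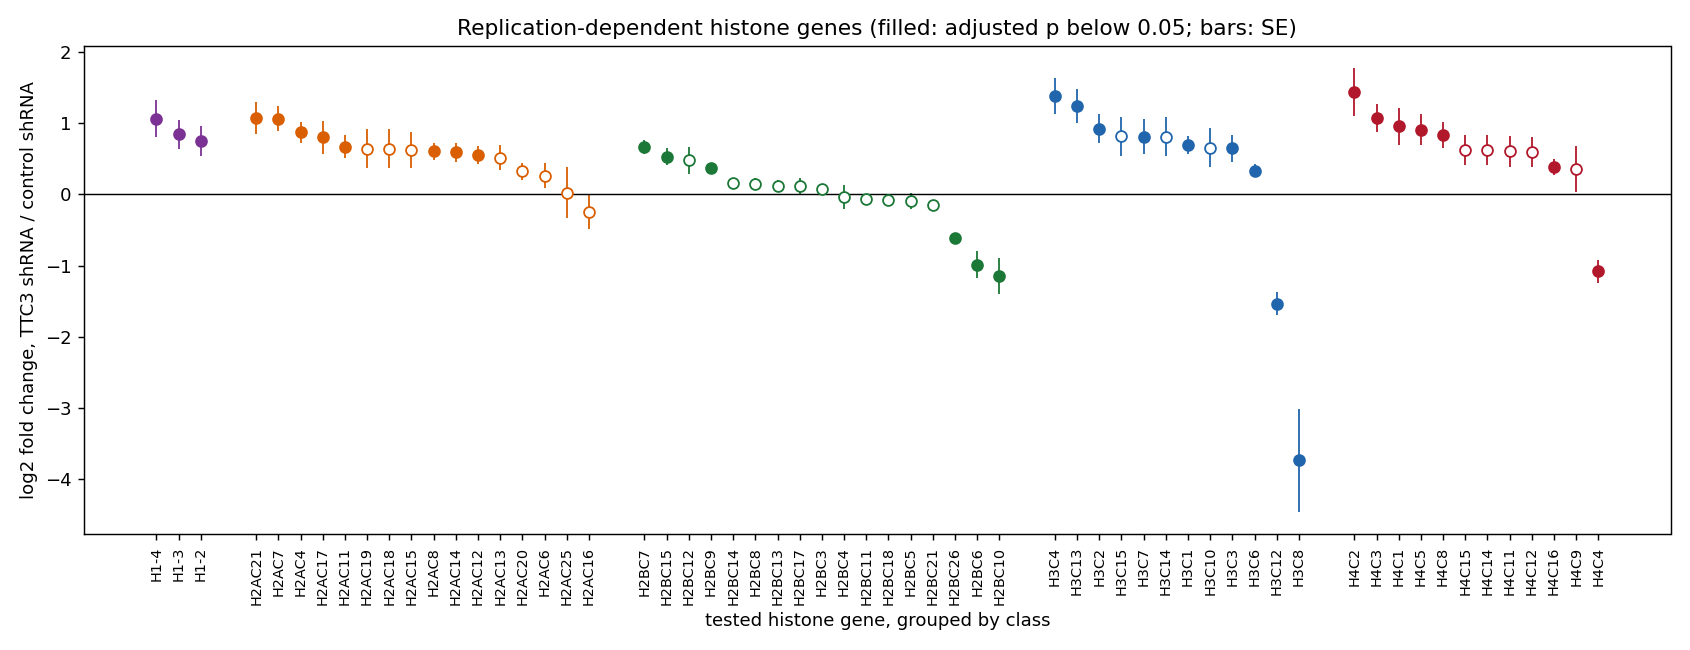
Log2 fold change (TTC3 shRNA over control shRNA) with its SE for each of the 60 tested histone genes, grouped by class and ordered within it; filled points passed an adjusted p of 0.05. H1, H2A, H3 and H4 genes lie mostly above 0, while most H2B genes lie near 0, and the lowest value is H3C8 at -3.74.

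Calls and medians were not alike over the classes; the difference between classes was not tested. H1 had 3 of 3 tested members higher, H2A 8 of 16, H3 7 of 12 and H4 6 of 12, with medians of 0.84, 0.61, 0.75 and 0.62 on the log2 fold change scale. H2B had 3 of 17 higher and 3 lower with a median of 0.07; 17.6% in each direction is near the shares of all genes. In TTC3 shRNA replicates 1, 2 and 3 the median log2 ratio to the control mean was 0.27, 0.94 and 1.17 for H1, and 0.11, 0.74 and 0.84 for H2A. It was 0.09, 0.90 and 1.11 for H3, and 0.09, 0.77 and 0.93 for H4. For H2B it was -0.05, 0.12 and -0.02. The other 4 classes were thus highest in replicate 3 and next to 0 or slightly above it in replicate 1, and H2B was near 0 in all 3. With the length trend removed, the median log2 fold change was -0.30 in H2B and 0.18 in H2A, so the sign of the H2B median depends on that trend.

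**Figure D2:**
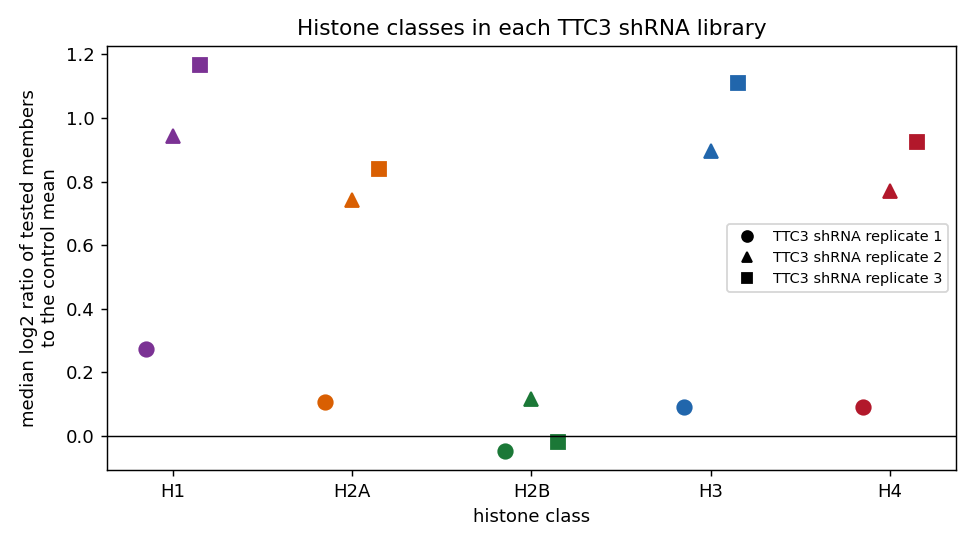
Median log2 ratio of the tested genes of each class to the control mean, in each of the 3 TTC3 shRNA libraries. Replicates 2 and 3 lie between 0.74 and 1.17 for H1, H2A, H3 and H4, and all H2B values lie between -0.05 and 0.12; with the length trend removed the H2B median fold change was -0.30.

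Sums over a class do not depend on how reads were divided among near-identical genes of that class. H1 summed to 621, 1051 and 1213 CPM with TTC3 shRNA, against 539, 527 and 525 CPM with control shRNA. H3 summed to 825, 1460 and 1654 CPM with TTC3 shRNA, against 746, 751 and 744 CPM with control shRNA. Each TTC3 shRNA library was above every control in both classes. H4 summed to 672, 1126 and 1286 CPM with TTC3 shRNA, against 576, 590 and 604 CPM with control shRNA. H2A summed to 1216, 1916 and 2172 CPM with TTC3 shRNA, against 1187, 1201 and 1195 CPM with control shRNA. For these as well the groups did not overlap, but replicate 1 of TTC3 shRNA exceeded the highest H2A control sum by little. As a percent of all library counts, without TMM scaling, H2A in TTC3 shRNA replicate 1 was at 0.1215, below the controls at 0.1246, 0.1252 and 0.1246. On that measure the groups overlapped in H2A and H2B but not in H1, H3 and H4. H2B summed to 1113, 1236 and 1281 CPM with TTC3 shRNA, against 1112, 1101 and 1092 CPM with control shRNA. Its mean was 1210 ± 87.1 CPM with TTC3 shRNA and 1102 ± 10.1 CPM with control shRNA (SD, n = 3 each), a ratio of 1.10, where the ratio was 1.81 for H1, 1.48 for H2A, 1.76 for H3 and 1.74 for H4. With 3 libraries a group, an exact permutation test of any such sum could not go below 0.10, and none was run since the members were chosen.

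H2B made up 25, 18.2 and 16.8% of the summed member CPM in TTC3 shRNA replicates 1, 2 and 3, against 26.7, 26.4 and 26.3% in the controls. Counted per kilobase over the 60 members whose RefSeq span is at most 1000 bases, the H2B share was 15.2, 10.9 and 9.94% with TTC3 shRNA, against 15.8, 15.7 and 15.8% with control shRNA. That limit kept all H1 and H2A genes, 11 of 13 H3, 14 of 15 H4 and 13 of 18 H2B genes. H2BC4, H2BC5, H2BC12, H2BC18 and H2BC21 were left out, among them the 3 highest H2B genes, so the share per kilobase covers only part of that class. Both measures gave a lower H2B share in every TTC3 shRNA library, by least in replicate 1. The ratio of H2A to H2B sums was 1.09, 1.55 and 1.70 with TTC3 shRNA, against 1.07, 1.09 and 1.09 with control shRNA, and the groups overlapped. The ratio of H3 to H4, partners in the nucleosome core, was 1.23, 1.30 and 1.29 with TTC3 shRNA, against 1.30, 1.27 and 1.23 with control shRNA. Here the groups overlapped fully and the means were 1.27 in both.

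**Figure D3:**
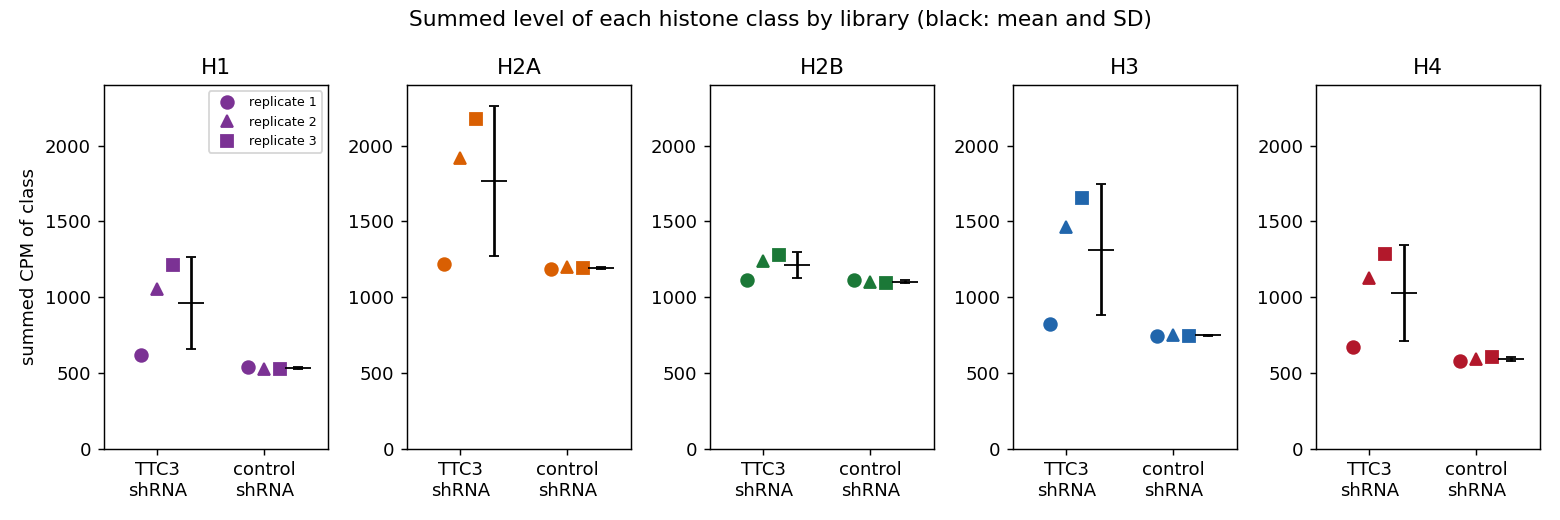
Summed CPM of each histone class in each library, with TTC3 shRNA left of control shRNA and the mean with SD in black. The 3 control libraries nearly coincide in each class; TTC3 shRNA replicates 2 and 3 stand well above them in H1, H2A, H3 and H4 and only slightly in H2B.

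Among H1 genes, which code for linker histones, H1-4 was at 169, 312 and 370 CPM with TTC3 shRNA, against 139, 137 and 131 CPM with control shRNA. Its log2 fold change was 1.06 ± 0.26 (SE; adjusted p = 0.0190). H1-3 was at 180, 287 and 335 CPM with TTC3 shRNA, against 151, 151 and 146 CPM with control shRNA (0.84 ± 0.21; adjusted p = 0.0195). Both had every TTC3 shRNA library above every control and replicate 1 nearest to them. H1-2 was at 271, 452 and 508 CPM with TTC3 shRNA, against 250, 238 and 248 CPM with control shRNA (0.74 ± 0.21; adjusted p = 0.0332). H1-2 also had the highest level per length of the 60 members that could be compared so, 561 CPM per kilobase with TTC3 shRNA and 335 with control shRNA. None of the 3 passed the threshold when any one control library was left out, and over all libraries left out in turn the highest adjusted p was 0.107.

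H2A genes code for the core histone that pairs with H2B. H2AC21 was at 44.5, 75.3 and 88.4 CPM with TTC3 shRNA, against 32.5, 32.3 and 34.5 CPM with control shRNA (log2 fold change 1.07 ± 0.23; adjusted p = 0.0118). H2AC7 was at 30.4, 43 and 49.7 CPM with TTC3 shRNA, against 21.8, 19 and 18 CPM with control shRNA (1.07 ± 0.18; adjusted p = 0.00474). H2AC4 was at 48.3, 66.5 and 73.3 CPM with TTC3 shRNA, against 33.8, 33.6 and 35.3 CPM with control shRNA (0.87 ± 0.15; adjusted p = 0.00481). In these 3 genes even TTC3 shRNA replicate 1 was well above the controls. The other 5 H2A genes that rose, H2AC17, H2AC11, H2AC8, H2AC14 and H2AC12, had log2 fold changes of 0.56 to 0.80. H2AC18 and H2AC19, near-identical copies whose counts differed by at most 1.35% in any library, did not pass the test. H2AC18 was at 141, 272 and 330 CPM with TTC3 shRNA, against 156, 162 and 158 CPM with control shRNA. Its TTC3 shRNA replicate 1 lay below the controls and the other 2 above (0.64 ± 0.27; adjusted p = 0.114). H2AC6 was at 146, 224 and 244 CPM with TTC3 shRNA, against 168, 172 and 172 CPM with control shRNA, and did not pass either (adjusted p = 0.297). H2AC25 and H2AC16 had the lowest H2A fold changes, 0.02 and -0.25, with TTC3 shRNA replicate 1 below and replicate 3 above the controls in both. H2AC13 and H2AC20 lay just outside the threshold, at adjusted p of 0.0553 and 0.0771, and H2AC15 at 0.0988.

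Of the 17 tested H2B genes, H2BC7 had the highest fold change. It was at 82.1, 95.8 and 104 CPM with TTC3 shRNA, against 58.5, 59.8 and 59.8 CPM with control shRNA (log2 fold change 0.66 ± 0.09; adjusted p = 0.00224). H2BC15 was at 68.9, 85.1 and 97.0 CPM with TTC3 shRNA, against 56.9, 58.1 and 59.3 CPM with control shRNA (0.53 ± 0.12; adjusted p = 0.0154). H2BC9 was at 38.2, 37 and 40.04 CPM with TTC3 shRNA, against 29.1, 29.5 and 30.2 CPM with control shRNA (0.38 ± 0.06; adjusted p = 0.00460). H2BC9 was unlike most members in that its 3 TTC3 shRNA libraries were alike; with the length trend removed its value was -0.03. A pair of abundant H2B genes had values near 0. H2BC18 was at 173, 150 and 145 CPM with TTC3 shRNA, against 167, 165 and 163 CPM with control shRNA (-0.08 ± 0.08; adjusted p = 0.473), and H2BC21 was at 131, 141 and 141 CPM with TTC3 shRNA, against 153, 155 and 152 CPM with control shRNA (-0.16 ± 0.06; adjusted p = 0.0791). For H2BC21 the TTC3 shRNA libraries all lay below the controls. H2BC12, at 156, 242 and 279 CPM with TTC3 shRNA against 162, 163 and 161 CPM with control shRNA, followed the pattern of the other classes, with replicate 1 level with the controls (0.48 ± 0.19; adjusted p = 0.0979). H2BC14 was near the threshold as well (0.17 ± 0.06; adjusted p = 0.0879).

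Among H3 genes, H3C4 was at 43.7, 83.0 and 91.5 CPM with TTC3 shRNA, against 28.9, 28.8 and 26.3 CPM with control shRNA (log2 fold change 1.38 ± 0.25; adjusted p = 0.00676). H3C13 was at 50.6, 91.1 and 99.4 CPM with TTC3 shRNA, against 33.1, 35.8 and 33.0 CPM with control shRNA (1.24 ± 0.23; adjusted p = 0.00724). H3C2 was at 152, 254 and 280 CPM with TTC3 shRNA, against 119, 120 and 122 CPM with control shRNA (0.92 ± 0.21; adjusted p = 0.0145). Every TTC3 shRNA library was above every control in all 3. The RefSeq span of H3C4 covers that of H2AC7 on the same strand, so reads of these genes may have been shared. H3C1, H3C3, H3C6 and H3C7 also rose, with log2 fold changes of 0.33 to 0.81. H3C14 and H3C15 differed from each other by at most 0.643% of counts and had log2 fold changes of 0.81 each, with adjusted p of 0.0573 and 0.0567. H3C14 was at 114, 226 and 262 CPM with TTC3 shRNA, against 114.9, 116 and 112 CPM with control shRNA, so that its replicate 1 lay within the controls. H3C10 was at 89.7, 177 and 210 CPM with TTC3 shRNA, against 98.5, 100 and 104 CPM with control shRNA (0.66 ± 0.28; adjusted p = 0.108).

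Among H4 genes, H4C2 had the highest fold change of all members. It was at 63.9, 140 and 182 CPM with TTC3 shRNA, against 45.9, 47.3 and 49.1 CPM with control shRNA (log2 fold change 1.44 ± 0.33; adjusted p = 0.0165). H4C3 was at 58.4, 93.0 and 107 CPM with TTC3 shRNA, against 40.3, 41.7 and 41.2 CPM with control shRNA (1.07 ± 0.20; adjusted p = 0.00755). H4C8 was at 131, 196 and 221 CPM with TTC3 shRNA, against 99.3, 100.5 and 107 CPM with control shRNA (0.83 ± 0.18; adjusted p = 0.0122). The groups did not overlap in any of the 3; H4C3 alone of them was called whichever library was left out. H4C5, H4C1 and H4C16 rose as well, by 0.91, 0.96 and 0.38 on the log2 scale. H4C16, the only member on chromosome 12, was at 21, 27.1 and 26.2 CPM with TTC3 shRNA, against 19.7, 19 and 18.3 CPM with control shRNA, and had a value of -0.06 with the length trend removed. H4C14 and H4C15, whose counts differed by at most 0.110%, were at log2 fold changes of 0.62 each (adjusted p of 0.0563 and 0.0559). H4C11 and H4C12, whose counts differed by 3.02 to 5.14%, were at 0.61 and 0.59 (adjusted p of 0.0693 and 0.0698).

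The 6 members that fell came from H2B, H3 and H4 and had control means of at most 30.6 CPM. H2BC26, on chromosome 1 from 228458103 to 228458558, was at 19, 21.3 and 19.9 CPM with TTC3 shRNA, against 30.5, 29.9 and 31.4 CPM with control shRNA (log2 fold change -0.61 ± 0.07; adjusted p = 0.00106). H2BC6 was at 3.36, 4.2 and 5.65 CPM with TTC3 shRNA, against 9.19, 8.49 and 8.58 CPM with control shRNA (-0.99 ± 0.19; adjusted p = 0.00762). H3C12 was at 0.524, 0.671 and 0.696 CPM with TTC3 shRNA, against 1.89, 1.86 and 1.74 CPM with control shRNA (-1.54 ± 0.16; adjusted p = 0.000761). In these 3 the TTC3 shRNA libraries, replicate 1 included, all lay below the controls. H4C4 was at 0.491, 0.598 and 0.599 CPM with TTC3 shRNA, against 1.24, 1.21 and 1.12 CPM with control shRNA (-1.08 ± 0.16; adjusted p = 0.00305). H2BC10 had 31, 21 and 22 counts with TTC3 shRNA, against 53, 67 and 59 counts with control shRNA (-1.15 ± 0.26; adjusted p = 0.0142), and was not called without TTC3 shRNA replicate 2 or without control replicate 2 or 3. H3C8 had 4, 3 and 0 counts with TTC3 shRNA, against 48, 31 and 28 counts with control shRNA (-3.74 ± 0.72; adjusted p = 0.00821). At such counts the size of the H3C8 change is loosely set. All 6 remained lower with the length trend removed.

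Position along the chromosomes was compared with class. In the first run of chromosome 6 genes, from 26020451 to 26285534, 28 tested members had a median log2 fold change of 0.68, made of 0.02 over its 8 H2B genes and 0.84 over the other 20. In the second run, from 27132316 to 27893891, 18 members had a median of 0.52, made of 0.14 over 6 H2B genes and 0.59 over the other 12. On chromosome 1, from 149782689 to 149887965, 11 members had a median of 0.64, made of -0.12 over 2 H2B genes and 0.64 over the other 9. In each of these runs, then, the H2B median was below that of the other classes. The remaining pair on chromosome 1 was H2AC25 at 0.02 and H2BC26 at -0.61.

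H2A and H2B genes that start head to head lie in the same place and share the stretch between their starts, and 12 such pairs were found, with starts 194 to 248 bases apart. In the 11 pairs with both genes tested, the H2A log2 fold change was above that of its H2B partner in 11 of 11, with a median difference of 0.42. Counted by library, the H2A gene had the higher ratio to the control mean in 7 of 11 pairs in TTC3 shRNA replicate 1, in 11 in replicate 2 and in 10 in replicate 3. The ratio of the 2 genes lay above all controls in every TTC3 shRNA library in 5 of 11 pairs, and below them in none; over 1224 head-to-head pairs of all tested genes the groups were apart in either direction in 43%, so the count of 5 is near that background. The pairs were chosen after values had been seen and no test is given. For H2AC11 and H2BC11 the ratio of H2A to H2B was 2.15, 2.91 and 3.16 with TTC3 shRNA, against 1.65, 1.6 and 1.72 with control shRNA. For H2AC17 and H2BC17, whose shared stretch is printed above, it was 1.03, 1.32 and 1.6 with TTC3 shRNA, against 0.828, 0.841 and 0.833 with control shRNA. In both pairs the H2A gene was called higher and the H2B gene did not pass the test. Log2 fold changes were 0.67 for H2AC11 and -0.07 for H2BC11, and 0.80 for H2AC17 and 0.11 for H2BC17. With each library left out in turn, H2AC11 was called in 2 of 6 fits and H2AC17 in 1 of 6. The smallest differences were those of H2AC12 with H2BC12, 0.08, and H2AC15 with H2BC15, 0.10.

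**Figure D4:**
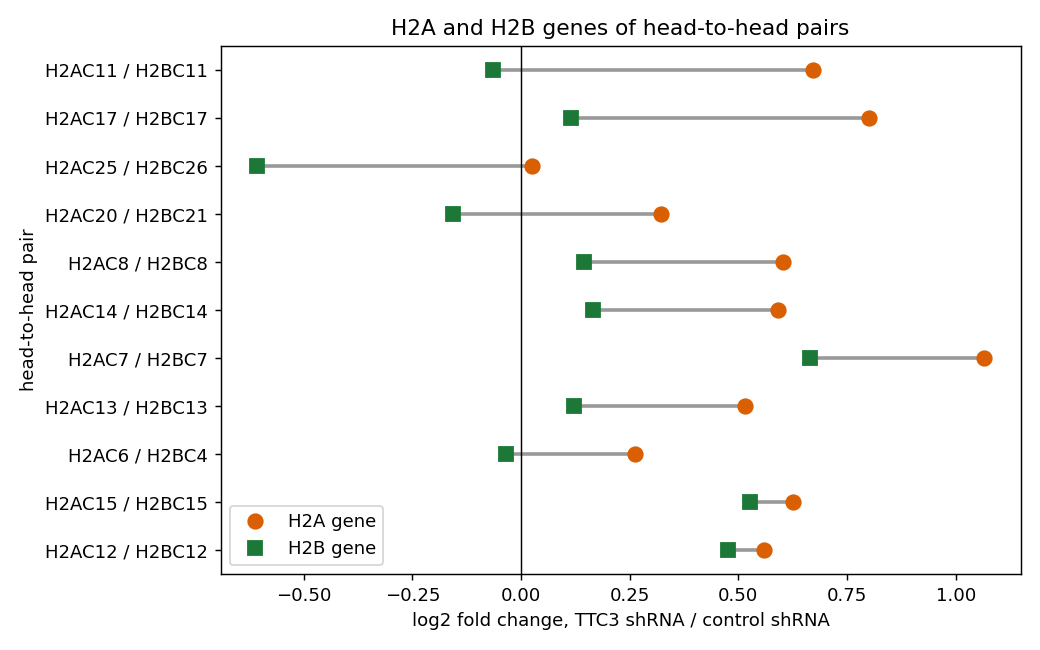
Log2 fold change (TTC3 shRNA over control shRNA) of the H2A gene (circle) and the H2B gene (square) in each of 11 head-to-head pairs. The H2A gene lies to the right of its partner in 11 of 11, by 0.08 to 0.74.

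By GENCODE 29 identifiers without their version, 72 transcripts in the table were matched to 64 members, 8 of them with several. Others may be in the table, since for H2AC25, H2BC26 and H3C10 the matched transcripts held fewer counts than the gene, and H2AC18, H2AC19, H3C2 and H3C3 had no match. Of 62 transcripts tested, 2 were higher and 3 lower by edgeR's quasi-likelihood test over 53805 transcripts, where 1.39% of all transcripts were higher and 2.6% lower (3.99% called in either direction). These 5 calls are not stable. None is left without any one control or without TTC3 shRNA replicate 2 or 3. The same holds with no count filter and with the replicate number as a block. Without TTC3 shRNA replicate 1, 42 member transcripts passed. The share of all transcripts called was computed for the main test alone, so the 42 cannot be set against it. The higher ones were the H2BC5 transcript with a stem-loop (log2 fold change 0.95 ± 0.16; adjusted p = 0.0427) and the H2BC7 transcript (0.64 ± 0.10; adjusted p = 0.0365). The lower ones were of H2BC26 (-1.06 ± 0.19; adjusted p = 0.0482), H3C10 (-1.03 ± 0.18; adjusted p = 0.0455) and H3C12 (-1.56 ± 0.23; adjusted p = 0.0317). The matched H3C10 transcript is a minor form, with 1246, 1327 and 1254 counts with TTC3 shRNA, against 2952, 2337 and 3108 with control shRNA, where the gene had 13525, 24286 and 30116 counts with TTC3 shRNA, against 15778, 16189 and 15522 with control shRNA.

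For 5 genes the table held transcripts both with and without the stem-loop, and in 5 of 5 the share of counts without it was lower in every TTC3 shRNA library than in any control. Over 9570 genes with at least 2 tested transcripts, the share of the highest transcript was apart between groups, in either direction, in 17.8%. H2BC5 had 63.6, 63.1 and 64.5% of its counts in the transcript without a stem-loop with TTC3 shRNA, against 82.7, 82.9 and 82.5% with control shRNA. Its 3 TTC3 shRNA libraries were alike, replicate 1 included, and its gene total did not pass the test (-0.09 ± 0.12; adjusted p = 0.577). The H2BC5 transcript with the stem-loop was at 35.7, 27.9 and 25.3 CPM with TTC3 shRNA, against 16, 14.8 and 15.1 CPM with control shRNA, and the other at 62.4, 47.8 and 46.1 CPM with TTC3 shRNA, against 76.8, 71.6 and 71.1 CPM with control shRNA. H2AC6 had 68.6, 49.2 and 47.6% without a stem-loop with TTC3 shRNA, against 79.9, 79.3 and 77.5% with control shRNA. H2BC15 had 18, 11.9 and 10.9% with TTC3 shRNA, against 28.3, 29.1 and 26.2% with control shRNA. In these 2 genes replicates 2 and 3 of TTC3 shRNA lay farther from the controls than replicate 1. H2BC4 had 60.2, 49.2 and 55.1% with TTC3 shRNA, against 63.7, 65.0 and 68.3% with control shRNA, and H2BC18 had 6.62, 6.13 and 7.0% with TTC3 shRNA, against 9.0, 13.2 and 14.4% with control shRNA. In GENCODE 29 the stem-loop transcripts run on past the loop, by 39 bases in H2BC5 and by 1114 in H2AC6. The counted versions of the stem-loop transcripts differ from those of GENCODE 29 in all 5 genes. Where the counted versions end is thus not known, and they cannot be taken as the short processed form. The shares rest on StringTie's division of reads between overlapping transcripts, and the stem-loop was read from GENCODE 29 sequences. The comparison was chosen after values had been seen.

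**Figure D5:**
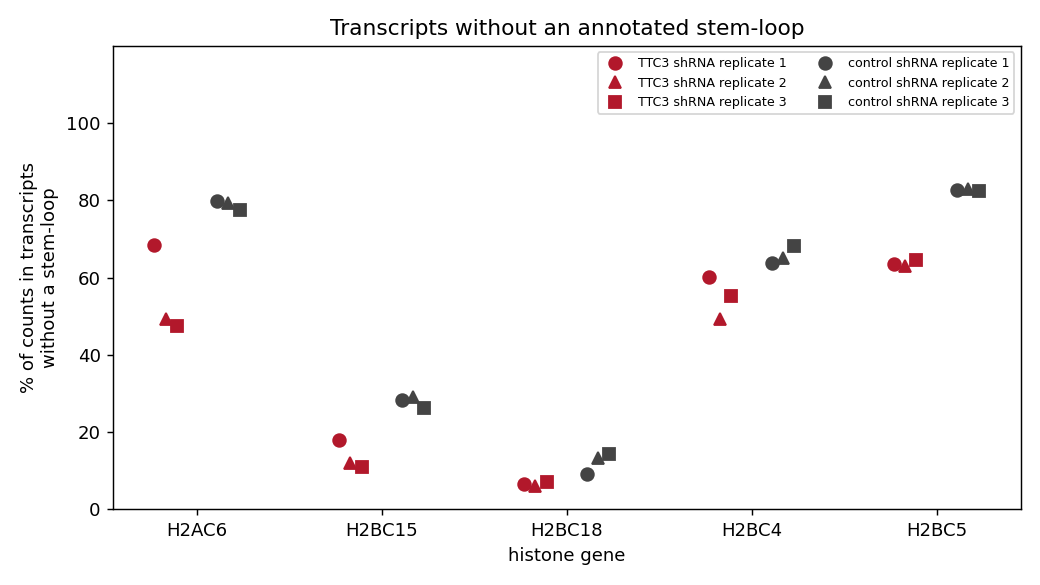
Percent of a gene's transcript counts in transcripts without an annotated stem-loop, in each library of the 5 histone genes with both forms; red, TTC3 shRNA, and grey, control shRNA. Every red point of a gene lies below all of its grey points, with a mean in H2BC5 of 63.7% with TTC3 shRNA and 82.7% with control shRNA.

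The genes that act around histone mRNA were described from lists, whose counts are to be read against the 15.7% of all tested genes called higher and the 17.8% called lower. No list was tested as a whole, and the counts depend on single libraries. Of 12 variant histones, which are made outside S phase as well and whose mRNAs carry a tail, 4 rose and 1 fell, with a median log2 fold change of 0.34; 3 to 9 passed the test when 1 library was left out. CENPA, the centromeric H3, was at 31.9, 30.1 and 31.8 CPM with TTC3 shRNA, against 13.7, 15.5 and 14.1 CPM with control shRNA (1.12 ± 0.08; adjusted p = 0.000103). H2AX, the H2A phosphorylated at DNA breaks and made from both tailed and stem-loop mRNA, was at 196, 286 and 314 CPM with TTC3 shRNA, against 141, 144 and 148 CPM with control shRNA (0.88 ± 0.16; adjusted p = 0.00709). CENPA was alike in the 3 TTC3 shRNA libraries, while H2AX was highest in replicates 2 and 3. H2AZ2 (0.38 ± 0.06; adjusted p = 0.00280) also rose, and MACROH2A2 fell (-0.32 ± 0.08; adjusted p = 0.0202).

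Of 10 genes for histone transcription, 1 rose and 3 fell, with a median of -0.09, against 15.7% of all genes higher and 17.8% lower. At most 1 passed when any one control or TTC3 shRNA replicate 2 or 3 was left out, and 8 passed when replicate 1 was. In that last case 26.3% of all genes were higher and 27.8% lower. NPAT was at 76.8, 50.3 and 47.3 CPM with TTC3 shRNA, against 69.2, 68.5 and 67.3 CPM with control shRNA, and HINFP at 15.2, 17.9 and 19.9 CPM with TTC3 shRNA, against 15.4, 16.2 and 16.5 CPM with control shRNA, and neither passed the test. CDK2 rose by 0.20 ± 0.06 (adjusted p = 0.0337). NFYB, a subunit of the CCAAT-binding factor, fell by 0.49 ± 0.11 (adjusted p = 0.0154), CCNE2, a cyclin E, fell by 0.57 ± 0.16 (adjusted p = 0.0339) and CASP8AP2, a partner of NPAT, fell by 0.42 ± 0.13 (adjusted p = 0.0433).

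Of 17 tested genes for processing of the histone mRNA end, 8 rose and none fell, with a median of 0.22, against 15.7% of all genes higher; 3 passed without any one control or without TTC3 shRNA replicate 2, 5 without replicate 3 and 14 without TTC3 shRNA replicate 1. SLBP was at 47.2, 56.5 and 60.9 CPM with TTC3 shRNA, against 50.03, 50.4 and 49.7 CPM with control shRNA and did not pass the test. Among those that rose were SNRPG (0.61 ± 0.06; adjusted p = 0.000696), SNRPF (0.39 ± 0.07; adjusted p = 0.00523), SNRPD3 (0.50 ± 0.09; adjusted p = 0.00558) and SNRPB (0.87 ± 0.21; adjusted p = 0.0200), Sm proteins that the U7 particle shares with the spliceosome. LSM10, a protein of the U7 particle, rose by 0.38 ± 0.11 (adjusted p = 0.0328), and LSM11, its partner, did not pass the test at -0.21. Of 16 genes for histone mRNA decay, 2 rose, LSM2 (0.50 ± 0.06; adjusted p = 0.00161) and the helicase UPF1 (0.48 ± 0.12; adjusted p = 0.0201), and 2 fell, the uridylyl transferase TUT7 (-0.39 ± 0.10; adjusted p = 0.0195) and the decapping enzyme DCP2 (-0.35 ± 0.09; adjusted p = 0.0204), neither count above the share over all genes. Without any one control or TTC3 shRNA replicate 2 or 3, 1 or 2 of the 16 passed, and without TTC3 shRNA replicate 1, 14. For both lists, the setting without TTC3 shRNA replicate 1 had 26.3% of all genes higher and 27.8% lower.

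Of 22 histone chaperones and import factors, 9 rose and none fell, with a median of 0.22, against 15.7% of all genes higher. The number was 3 with library totals alone, 2 or 3 without any one control, 6 without TTC3 shRNA replicate 2, 8 without replicate 3 and 15 without replicate 1. IPO4, an importin that carries H3 and H4, rose by 0.88 ± 0.14 (adjusted p = 0.00353), SSRP1, a subunit of FACT, by 0.57 ± 0.10 (adjusted p = 0.00622), NAP1L1, a chaperone of H2A and H2B, by 0.28 ± 0.06 (adjusted p = 0.00937) and HIRA, which deposits H3.3, by 0.29 ± 0.06 (adjusted p = 0.0116). Of 34 genes for S phase and DNA replication, 16 rose and none fell, with a median of 0.24, against 15.7% of all genes higher. The number was 7 with library totals alone, 6 or 7 without any one control, 8 without TTC3 shRNA replicate 2, 11 without replicate 3 and 28 without replicate 1. For both lists, the setting without TTC3 shRNA replicate 1 had 26.3% of all genes higher and 27.8% lower. GINS4, a subunit of the replicative helicase, rose by 0.78 ± 0.06 (adjusted p = 0.000209), MCM6, another subunit, by 0.57 ± 0.05 (adjusted p = 0.000381), POLA2, a subunit of the primase complex, by 0.67 ± 0.09 (adjusted p = 0.00182) and CCNA2, cyclin A, by 0.41 ± 0.06 (adjusted p = 0.00329). The medians of the S phase list in TTC3 shRNA replicates 1, 2 and 3 were 0.18, 0.28 and 0.30, so it was above 0 in replicate 1 too and differed less between libraries than the histone genes. Structured small RNAs had medians of -0.22, 0.61 and 0.90 in the same libraries, and 1 of 7 tested (RMRP, 0.83 ± 0.24; adjusted p = 0.0374) passed the test. Their order over the libraries was that of the histone genes; the part of these RNAs in the histone values was not tested.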

How the data were processed

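RNA was measured in 3 PC3 libraries with TTC3 shRNA and 3 with control shRNA, grouped and numbered by their titles. Total RNA was depleted of ribosomal RNA and made into directional libraries, per the labels' protocols. The build hg38 and the tools StringTie, STAR and Trim Galore are named in the submitters' processing notes; the versions, annotation release and strand setting were not stated there. The deposited estimated counts per gene and per transcript were whole numbers not scaled for depth and needed no rounding. RefSeq spans overlapped on the same strand for H2AC7 with H3C4. On opposite strands they overlapped for H2AC19 with H4C15, H3C15 with H4C15 and H2BC12 with H4C9. How reads that fit several near-identical or overlapping genes were divided cannot be checked here.

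The test was edgeR 4.0.16 (R 4.3.3) on the 6 libraries without a block: filterByExpr with default settings (about 10 counts in a group, 15 in total), TMM, glmQLFit and glmQLFTest, Benjamini-Hochberg over all 24325 genes or 53805 transcripts, threshold 0.05. CPM use TMM-scaled totals, and each SE was taken as the log2 fold change over the root of the F statistic. At these depths abundant genes are limited by the spread between libraries and the lowest members by counting error too. Replicates of a group differed by 3.85 to 35.5 times sampling noise, so all 6 were kept apart. The script was tested on simulated data. Positions and promoters came from RefSeq (GRCh38.p14), transcripts from GENCODE 29. Runs of members on a chromosome were split at the large gaps between them. Named members are those past or near the threshold (adjusted p of 0.05 to 0.1) and the 3 highest of each class, plus members of pairs, copies and transcript forms chosen after their values were seen; lists give up to 4 genes in order of adjusted p. HINFP, NPAT, SLBP, LSM10 and LSM11 were named for their known role after values were seen. The members and lists were chosen with earlier results of these data known. Alternatives were other scalings (DESeq2 1.42.0 size factors, totals alone, TMM without mitochondrial and the 20 highest genes), DESeq2, limma-voom (limma 3.58.1), other count filters, an adjusted p of 0.01, a replicate block, a lowess trend with transcript length removed, and each library left out.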

Additional observations from a re-analysis of the deposited data

How the results depend on the processing

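The share of all genes called higher and lower under a setting is given in parentheses after its counts of members. For member transcripts the share over all transcripts was not computed under these settings. There were 27 higher and 6 lower with DESeq2 size factors (16.3%, 17.4%) and with TMM without mitochondrial and the 20 highest genes (15.8%, 17.8%). With library totals alone, which put the median of all genes at -0.15, 23 were higher and 7 lower (10.4%, 22.02%), the H2B median was -0.057 and the H2B sum differed by 0.0042 (log2); the lists for decay, chaperones and S phase then had 7, 3 and 7 genes past the test. The DESeq2 test gave 40 higher and 6 lower (19.8%, 20.2%), with 13 of H2A, 11 of H4, 8 decay genes, 3 structured small RNAs and 35 member transcripts called. Limma-voom gave 25 and 6 (15%, 18.9%) and called 0 structured small RNAs. Without a count filter 22 were higher and 7 lower (7.82%, 9.50%), and 2 transcription genes, 0 structured small RNAs and 0 member transcripts passed. At least 50 counts in 3 libraries left 27 and 5 (20.01%, 21.5%). At an adjusted p of 0.01, 9 were higher and 5 lower (6.94%, 9.84%); called were 0 of H1, 3 of H2A, 5 of H3, 2 of H4, 3 variants, 0 transcription, 3 end processing, 1 decay, 3 chaperone and 6 S phase genes, 0 structured small RNAs and 0 member transcripts.

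With the trend with transcript length removed, 16 members were higher and 12 lower (12.5%, 21.6%). The median was 0.15 over all members, 0.18 in H2A and -0.30 in H2B, the sums differed by 0.18 over all members and by -0.21 in H2B, and 5 end processing genes and 0 structured small RNAs passed. The log2 fold change changed sign in H2BC9 (-0.032), H4C16 (-0.060), H2AC6 (-0.17), H2BC12 (-0.0053), H2AC20 (-0.10) and H2BC14 (-0.23). The alternative removes a trend fitted over 10559 protein-coding genes, with members and listed genes left out of the fit. Genes of unknown length were not changed by it. The length of a member was its RefSeq span where at most 1000 bases, and otherwise that of a GENCODE 29 transcript. Other genes took the length of their most counted GENCODE 29 transcript. H4C14 and H4C15, with nearly equal counts, were thus set at 396 and 1132 bases and had values of 0.14 and 0.33. Values of members with the trend removed therefore depend on the length chosen. The cause of that trend was not tested. Per length, over the 60 members with a short enough span, the H2A share differed by -1.96 percentage points, against -0.64 in CPM over all members.

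The replicate numbers were shared by both groups, but same-numbered libraries deviated together with correlations of 0.17, 0.18 and 0.034, so they were not taken as pairs. With the replicate number as a block 26 members were higher and 6 lower (13.2%, 15.3%), 5 end processing genes and 0 member transcripts passed.

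Leaving out each library gave 9 to 46 members higher and 5 to 9 lower (7.33 to 26.3%, 10.8 to 27.8%). Members past the test in either direction numbered 0 to 3 in H1, 3 to 15 in H2A, 4 to 14 in H2B, 5 to 12 in H3 and 2 to 11 in H4. The median ranged from 0.42 to 0.75 over all members, 0.66 to 1.03 in H1, 0.47 to 0.81 in H2A, 0.05 to 0.12 in H2B, 0.59 to 1.02 in H3 and 0.46 to 0.86 in H4. The log2 difference of sums ranged from 0.44 to 0.81 over all members, 0.67 to 1.11 in H1, 0.40 to 0.79 in H2A, 0.10 to 0.21 in H2B, 0.63 to 1.08 in H3 and 0.62 to 1.05 in H4. The H2A gene of a pair was above its partner in 11 of 11 each time, by a median of 0.29 to 0.55. List genes past the test numbered 3 to 9 (variants), 0 to 8 (transcription), 3 to 14 (end processing), 1 to 14 (decay), 2 to 15 (chaperones), 6 to 28 (S phase) and 0 to 6 (structured small RNAs), member transcripts 0 to 42, and the median difference in the share without a stem-loop was -16.5 to -12.9 percentage points. The highest counts are those without TTC3 shRNA replicate 1, when 26.3% of all genes were higher and 27.8% lower. Low counts leave 8 members untested and the size of the H3C8 change loosely set.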
